A study of Homo sapiens with 24 samples.

Results

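The phosphofructokinase genes and their PFKFB regulators were followed in A2780 cells, an established line of human epithelial ovarian cancer, kept in low or normal oxygen. Their 6 members, PFKL, PFKM, PFKP, PFKFB2, PFKFB3 and PFKFB4, were taken by gene symbol from the 22446 symbols of the deposited table, and all 6 were among the 11933 genes with enough signal to test. The labels name no engineered allele, and every culture was kept at 37 °C and 5% CO2 in RPMI medium with fetal bovine serum and gentamicin. Hypoxia was 1% O2 in a controlled chamber for 6 hr, 48 hr or 6 days. The normoxia groups of the same 3 times are labelled as controls, and their oxygen level is not given in the labels. Each of the 6 groups had 2 libraries of RNA depleted of ribosomal RNA, numbered 1 and 2 (normoxia, 6 hr), 3 and 4 (hypoxia, 6 hr), 5 and 6 (normoxia, 48 hr), 7 and 8 (hypoxia, 48 hr), 9 and 10 (normoxia, 6 days) and 11 and 12 (hypoxia, 6 days). Nothing in the labels tells whether paired libraries are separate cultures or repeats of 1 culture, so every p-value reflects only how far these libraries differ, which may be technical.

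Phosphofructokinase-1 (PFK-1) adds a phosphate to fructose 6-phosphate and thereby commits sugar to glycolysis. It is a tetramer of liver-type (PFKL), muscle-type (PFKM) and platelet-type (PFKP) subunits, named for tissues where each is abundant. The PFKFB enzymes are bifunctional: one domain makes fructose 2,6-bisphosphate, the strongest known allosteric activator of PFK-1, and the other domain breaks it down. Hypoxia-inducible factors (HIF) are transcription factors that gather in low oxygen, and glycolytic genes are among their best known targets. They bind DNA at short hypoxia response elements built around ACGTG or GCGTG.

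The 250 bases upstream of annotated starts were read from RefSeq (GRCh38.p14), which holds 15 starts for 5 of the 6 members, PFKFB2 being the one not matched. Either motif, on either strand, stood in 7 of these 15 windows and in 43.2% of all 35114 windows of the same length. Counted by gene, windows with a motif numbered 2 of 2 for PFKFB3, 1 of 1 for PFKFB4, 1 of 1 for PFKL, 2 of 4 for PFKP and 1 of 7 for PFKM. The 7 of 15 is near the share over all windows, which were not matched for their content of G and C. Several PFKM windows overlap each other, so its 7 are not separate and the genes cannot be compared by these counts. The downstream PFKFB3 start and the single starts of PFKFB4 and PFKL are printed, because these genes rose in hypoxia and have few starts. Each runs 5′ to 3′ on the strand of its gene and ends at the base before the start. Capitals mark ACGTG or GCGTG, or their reverse complements.
PFKFB4: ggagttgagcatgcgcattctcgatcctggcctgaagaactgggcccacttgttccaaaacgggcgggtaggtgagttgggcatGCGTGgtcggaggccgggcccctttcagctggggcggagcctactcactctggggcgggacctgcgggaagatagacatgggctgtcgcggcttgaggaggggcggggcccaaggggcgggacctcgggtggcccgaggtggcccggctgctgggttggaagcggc
PFKFB3: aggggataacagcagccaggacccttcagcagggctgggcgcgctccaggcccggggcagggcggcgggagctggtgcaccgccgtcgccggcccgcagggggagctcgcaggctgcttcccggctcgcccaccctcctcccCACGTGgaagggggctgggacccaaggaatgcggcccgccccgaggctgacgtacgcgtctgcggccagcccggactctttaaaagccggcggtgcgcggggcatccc
PFKL: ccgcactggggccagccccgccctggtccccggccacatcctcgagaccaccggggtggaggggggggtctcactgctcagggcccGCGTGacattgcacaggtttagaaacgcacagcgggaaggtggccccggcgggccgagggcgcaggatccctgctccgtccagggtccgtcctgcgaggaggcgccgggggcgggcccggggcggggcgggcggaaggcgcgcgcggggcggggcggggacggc
The PFKFB4 window, chr3:48556804-48557053 on the minus strand, held 1 GCGTG, beginning 166 bases before the start. The PFKFB3 window, chr10:6202682-6202931 on the plus strand, held ACGTG on both strands as the overlapping palindrome CACGTG, beginning 108 bases before the start. That palindrome was present in 6.35% of all windows, against 18.5% for ACGTG and 32.2% for GCGTG. The PFKL window, chr21:44299803-44300052 on the plus strand, held 1 GCGTG, beginning 164 bases before the start. A match describes letters in these windows and is not evidence of a bound site.

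Levels are RPKM as deposited, reads normalised to transcript length and library depth, so different genes were set side by side per length. The gene models and denominator used are not given, so the order of genes and the shares depend on lengths that are not known. Fold changes are on the log2(RPKM + 0.5) scale, which makes the fold of weakly expressed genes smaller than the plain ratio. Tests of single genes are limma's moderated tests with Benjamini-Hochberg adjustment over 11933 genes, two-sided, with a threshold of 0.05 on adjusted p, and ± after a fold change is its standard error. In bulk RNA, fewer cells of a type and less RNA per cell cannot be told apart. One library stood apart in transcripts of other cell types: library 4 (hypoxia, 6 hr) had 20.2 RPKM of HBB, the beta-globin of red cells, against 0.0417 to 0.549 in the others. It also had 3.06 RPKM of COL1A2, a fibroblast collagen, against 0.0244 to 0.125 in the others.

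In hypoxia 4 of the 6 members rose at each time, PFKL, PFKP, PFKFB3 and PFKFB4, and none fell. Across all genes tested, 3.39% were higher and 0.201% lower at 6 hr, 9.24 and 2.89% at 48 hr, and 23.9 and 18.3% at 6 days. The median log2 fold change of the 6 members was 0.99, 1.31 and 1.61 at the 3 times, beside 0.04, 0.01 and 0.04 over all genes. The members were chosen with earlier results of these data known, so this contrast is only a description. PFKM and PFKFB2 did not pass the threshold at any single time.

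**Figure D1:**
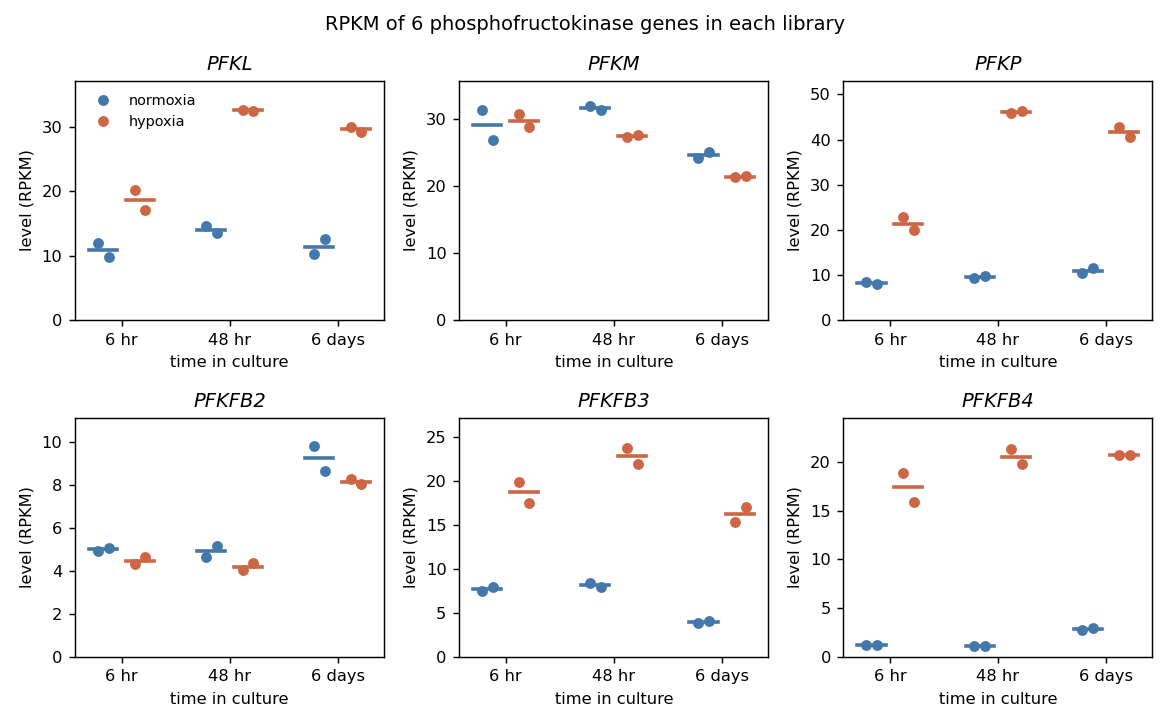
Level in RPKM (y axis, linear, from 0) of each of the 6 genes against time in culture (x axis). Points are single libraries, 2 per group, bars are group means, and colour gives normoxia or hypoxia. PFKL, PFKP, PFKFB3 and PFKFB4 are higher in both hypoxia libraries at each time, while PFKM and PFKFB2 lie close together in both conditions.

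Among the PFK-1 subunits, PFKP changed most. Its normoxia libraries read 8.35 and 8.00 RPKM at 6 hr, 9.24 and 9.73 at 48 hr and 10.4 and 11.6 at 6 days. Its hypoxia libraries read 22.8 and 19.9 RPKM at 6 hr, 45.9 and 46.3 at 48 hr and 42.8 and 40.6 at 6 days. Both hypoxia libraries were above every normoxia library at each time. The rise was 2.51-fold at 6 hr (log2 1.33 ± 0.09, adjusted p = 9.45e-06), 4.67-fold at 48 hr (log2 2.22, adjusted p = 7.90e-08) and 3.68-fold at 6 days (log2 1.88, adjusted p = 1.28e-07). PFKP was the 25th highest log2 fold change of 11933 genes at 48 hr.

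PFKL, the subunit named for liver, rose by less. Its normoxia libraries read 12.05 and 9.81 RPKM at 6 hr, 14.7 and 13.5 at 48 hr and 10.3 and 12.5 at 6 days. Its hypoxia libraries read 20.2 and 17.1 RPKM at 6 hr, 32.6 and 32.5 at 48 hr and 30.1 and 29.3 at 6 days, and none overlapped normoxia of the same time. The rise was 1.68-fold at 6 hr (log2 0.75 ± 0.12, adjusted p = 0.00573), 2.27-fold at 48 hr (adjusted p = 8.32e-05) and 2.54-fold at 6 days (adjusted p = 1.29e-05). Without library 3 the 6 hr difference was log2 0.63 with an adjusted p of 0.0762, and the call was lost.

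PFKM, the only isoform of skeletal muscle, was the most abundant member in normoxia and did not pass the test in hypoxia. At 6 hr it read 31.3 and 26.8 RPKM in normoxia and 30.6 and 28.7 in hypoxia, and the groups overlapped. The difference was log2 0.03, with a 95% interval from -0.17 to 0.23 (adjusted p = 0.905). At 48 hr it read 31.8 and 31.2 RPKM in normoxia against 27.2 and 27.5 in hypoxia, and at 6 days 24.1 and 25.0 against 21.2 and 21.4. The hypoxia libraries were the lower ones at both later times, by log2 -0.20 at each (adjusted p = 0.184 and 0.0948). At 48 hr the difference passed under trimmed-mean centring (log2 -0.25, adjusted p = 0.0333). At 6 days it passed without library 1 (adjusted p = 0.0316), without library 2 (0.0314) and under both other scalings (0.00621 and 0.0116).

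**Figure D2:**
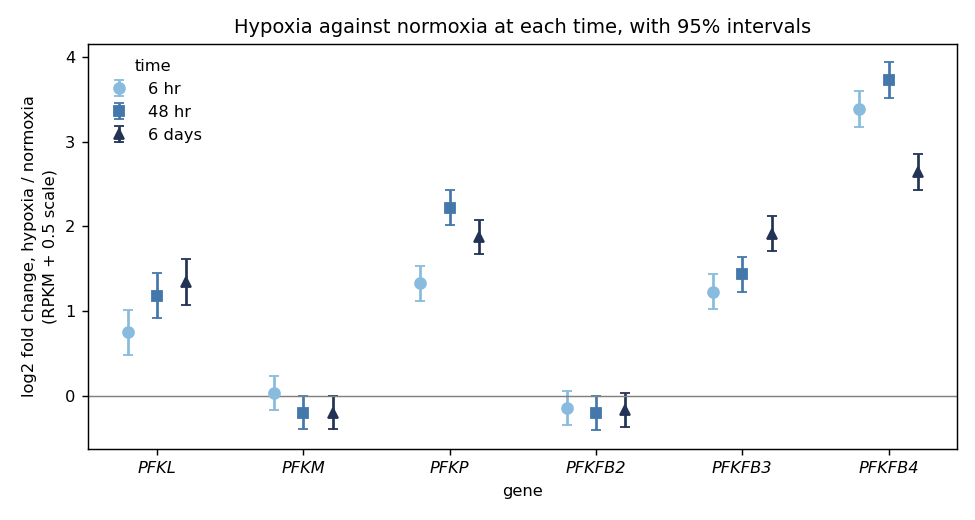
Log2 fold change of hypoxia over normoxia (y axis, RPKM + 0.5 scale) for each gene (x axis) at 6 hr, 48 hr and 6 days, with 95% intervals from the limma model. PFKFB4 lies highest at every time (3.39, 3.73 and 2.65), and PFKM and PFKFB2 lie near 0.

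Among the PFKFB enzymes, PFKFB4, a testis isoform also known in hypoxic tumour cells, had the highest fold. Its normoxia libraries read 1.16 and 1.24 RPKM at 6 hr, 1.07 and 1.10 at 48 hr and 2.80 and 2.98 at 6 days. Its hypoxia libraries read 18.9 and 15.9 RPKM at 6 hr, 21.3 and 19.8 at 48 hr and 20.8 and 20.7 at 6 days, so every hypoxia library was far above every normoxia library. The log2 fold change was 3.39 ± 0.10 at 6 hr (adjusted p = 1.15e-08), 3.73 at 48 hr (adjusted p = 4.00e-09) and 2.65 at 6 days (adjusted p = 2.32e-08). It ranked 1st, 2nd and 27th among 11933 genes at these times. As a plain ratio of mean RPKM, hypoxia over normoxia was 14.5, 18.9 and 7.18.

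PFKFB3, an isoform whose kinase activity greatly exceeds its phosphatase activity, also rose at each time. Its normoxia libraries read 7.45 and 7.92 RPKM at 6 hr, 8.36 and 7.95 at 48 hr and 3.83 and 4.04 at 6 days. Its hypoxia libraries read 19.97 and 17.5 RPKM at 6 hr, 23.8 and 22.0 at 48 hr and 15.4 and 17.1 at 6 days, with no overlap at any time. The rise was 2.35-fold at 6 hr (log2 1.23 ± 0.09, adjusted p = 2.02e-05), 2.70-fold at 48 hr (adjusted p = 2.23e-06) and 3.77-fold at 6 days (adjusted p = 1.28e-07).

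PFKFB2, an isoform known from heart, where kinases of the insulin pathway raise its activity, did not pass at a single time. It read 4.93 and 5.08 RPKM in normoxia and 4.31 and 4.63 in hypoxia at 6 hr. It read 4.66 and 5.18 against 4.03 and 4.36 RPKM at 48 hr, and 9.82 and 8.66 against 8.25 and 8.05 RPKM at 6 days. The hypoxia libraries were the lower pair each time, by log2 -0.15, -0.21 and -0.17 (adjusted p = 0.470, 0.184 and 0.167). With oxygen and time as additive terms over all 12 libraries, PFKFB2 fell by 0.17 on the log2 scale (SE 0.06, adjusted p = 0.0398), and 5 of 6 members passed, beside 22.5% of all genes. That call was lost without any one of libraries 3, 5, 6, 7, 8, 9, 11 or 12, with adjusted p from 0.0557 to 0.105. In the same model PFKL, PFKP, PFKFB3 and PFKFB4 were higher by log2 1.09, 1.81, 1.53 and 3.26, while PFKM stood at -0.12 (adjusted p = 0.180). Without library 2, or under either other scaling, PFKM passed too (adjusted p = 0.0302 to 0.0365).

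PFKFB1, the liver isoform and no member here, read at most 0.368 RPKM in any library and was not tested. The fructose bisphosphatases FBP1 and FBP2, which run the PFK-1 step backwards in gluconeogenesis, read at most 0.0376 and 0.0941 RPKM.

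Without library 4, which held HBB and COL1A2, the 6 hr log2 fold changes were 0.86 for PFKL (adjusted p = 0.0113), 1.43 for PFKP (6.68e-05), 1.32 for PFKFB3 (0.000147) and 3.51 for PFKFB4 (1.36e-07). All 4 calls at 6 hr held without this library.

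The order of the members per length was different in the 2 conditions. In normoxia at 6 hr and 48 hr it ran PFKM, PFKL, PFKP, PFKFB3, PFKFB2 and PFKFB4 from high to low, and no neighbours overlapped. In hypoxia at 48 hr it ran PFKP, PFKL, PFKM, PFKFB3, PFKFB4 and PFKFB2, again with no overlap between neighbours. In hypoxia at 6 hr PFKM was highest and PFKFB2 lowest, while PFKP, PFKFB3, PFKL and PFKFB4 overlapped from neighbour to neighbour. At 6 days the order in normoxia was PFKM, PFKL, PFKP, PFKFB2, PFKFB3 and PFKFB4, with PFKL and PFKP overlapping. In hypoxia at 6 days it was PFKP, PFKL, PFKM, PFKFB4, PFKFB3 and PFKFB2 without overlap.

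Because the PFK-1 subunits assemble with each other, each of their genes was also expressed as a share of the family's summed RPKM. Shares of the summed RPKM of PFKFB1 to PFKFB4 were taken in the same way, as a description of that family. The PFK-1 sum was 48.2 ± 4.97 RPKM (SD, n = 2) in normoxia and 69.6 ± 5.54 in hypoxia at 6 hr, 55.1 ± 0.916 and 106 ± 0.320 at 48 hr, and 47.0 ± 3.01 and 92.7 ± 1.97 at 6 days. PFKM made up 60.3% ± 0.297 of that sum in normoxia and 42.7% ± 1.49 in hypoxia at 6 hr, 57.2% ± 0.169 and 25.8% ± 0.0838 at 48 hr, and 52.4% ± 2.01 and 23.0% ± 0.629 at 6 days. PFKP made up 17.0% ± 1.24 and 30.6% ± 0.550 at 6 hr, 17.2% ± 0.920 and 43.5% ± 0.0849 at 48 hr, and 23.4% ± 0.222 and 45.0% ± 0.705 at 6 days. PFKM was thus the leading transcript of normoxia, and PFKP that of hypoxia from 48 hr on. PFKL moved less, from 22.6, 25.5 and 24.2% in normoxia to 26.7, 30.7 and 32.0% in hypoxia.

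In an exact permutation test of the oxygen labels within each time (two-sided, adjusted over 8 share and sum tests), PFKM lost 26.2 percentage points on average over the times. PFKP gained 20.5 points and PFKL 5.69 points in the same exact test, and the PFK-1 sum was 1.77-fold higher. Each of these had an exact permutation p = 0.00926, the smallest this design allows, and an adjusted p of 0.0106. Shares of a family are parts of a whole, so a gain by PFKP and PFKL is a loss by PFKM. These tests are therefore not separate from each other or from the tests of single genes. The level of PFKM itself did not pass at any single time. At each time both hypoxia libraries were below both normoxia libraries for the PFKM share and above them for the PFKP and PFKL shares.

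The PFKFB sum was 14.0 ± 0.488 RPKM (SD, n = 2) in normoxia and 40.7 ± 3.55 in hypoxia at 6 hr, 14.3 ± 0.125 and 47.7 ± 2.01 at 48 hr, and 16.3 ± 0.757 and 45.3 ± 0.907 at 6 days. PFKFB4 made up 8.60% ± 0.0895 of it in normoxia and 42.7% ± 1.58 in hypoxia at 6 hr, 7.58% ± 0.0983 and 43.1% ± 0.422 at 48 hr, and 17.8% ± 1.59 and 45.8% ± 1.06 at 6 days. PFKFB2 made up 35.9, 34.3 and 56.7% in normoxia and 11.1, 8.81 and 18.0% in hypoxia. The PFKFB2 share was therefore lower in each hypoxia group although its level differed little. PFKFB3 made up 55.1, 57.0 and 24.2% in normoxia and 46.1, 48.0 and 35.8% in hypoxia, lower in hypoxia at 6 hr and 48 hr and higher at 6 days.

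By the same exact permutation test the PFKFB4 share gained 32.5 points, the PFKFB2 share lost 29.7 points and the PFKFB sum was 3.00-fold higher, each with p = 0.00926 and adjusted p = 0.0106. These shares too are parts of a whole and not separate evidence. The PFKFB3 share differed by -2.11 points on average (exact permutation p = 0.556), an average of opposite differences: -8.99 points at 6 hr, -9.00 at 48 hr and 11.7 at 6 days.

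**Figure D3:**
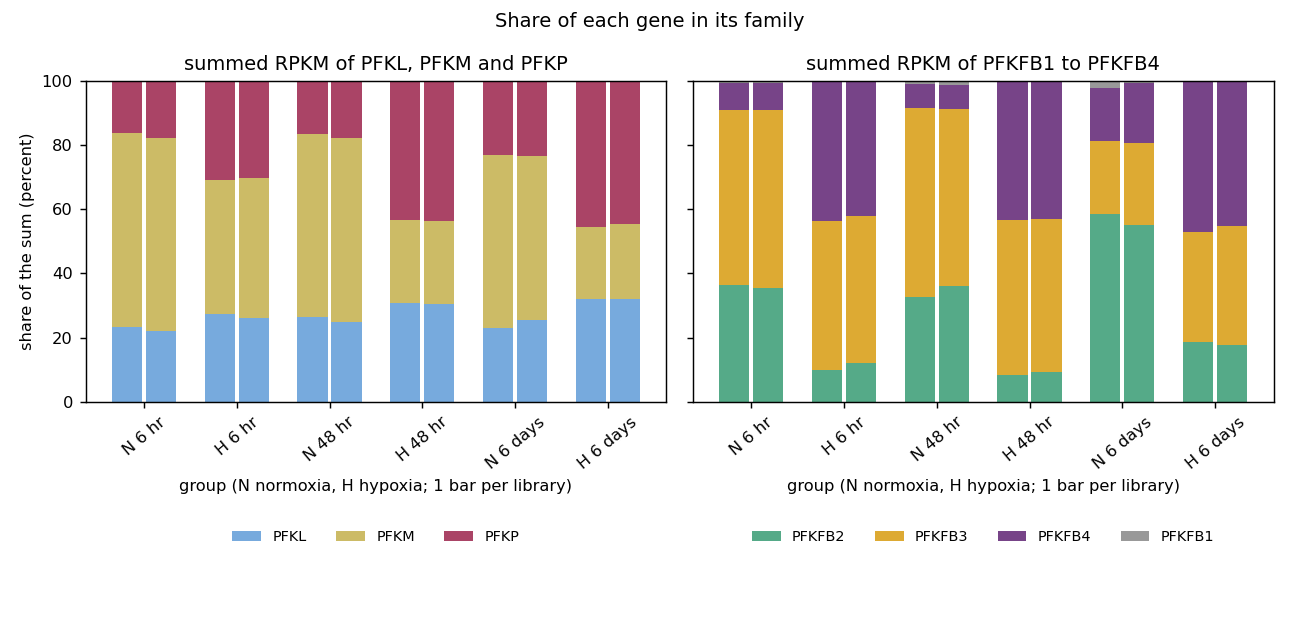
Share of each gene in the summed RPKM of its family, in percent (y axis), for PFKL, PFKM and PFKP (left) and PFKFB1 to PFKFB4 (right). Each bar is a library, 2 per group (x axis). At 6 hr, 48 hr and 6 days PFKM is at 60.3, 57.2 and 52.4% in normoxia and at 42.7, 25.8 and 23.0% in hypoxia. PFKFB4 is at 42.7% or more on average in each hypoxia group.

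Whether the response differed between times was tested as the difference of the hypoxia effects in the same model. From 6 hr to 48 hr 1 of 6 members passed, beside 0.528% of all genes: the effect on PFKP was larger at 48 hr by log2 0.89 (SE 0.13, adjusted p = 0.0136). That call was lost without library 4, 5, 6, 7 or 8, with adjusted p of 0.0694, 0.0663, 0.0562, 0.0923 and 0.0584. The effects on PFKL and PFKFB4 differed by 0.44 and 0.34 without passing (adjusted p = 0.390 and 0.389).

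From 48 hr to 6 days 2 of 6 members passed, beside 10.7% of all genes, and they moved in opposite directions. The effect on PFKFB4 was smaller at 6 days by log2 -1.08 (adjusted p = 0.00196). Its hypoxia level was 20.6 ± 1.06 RPKM (SD, n = 2) at 48 hr and 20.7 ± 0.0654 at 6 days, while its normoxia level was 1.09 ± 0.0235 at 48 hr and 2.89 ± 0.124 at 6 days. The hypoxia level differed by log2 0.01 without passing (adjusted p = 0.915), but under quantile normalization by 0.21, which passed (adjusted p = 0.0358). The effect on PFKFB3 was larger at 6 days by log2 0.48 (adjusted p = 0.0437), and this call was lost without any one of libraries 5 to 12, with adjusted p up to 0.166. It was also lost with a pseudocount of 1, no filter or no intensity trend (0.0533 to 0.0571). The effect on PFKP differed by log2 -0.34 without passing (adjusted p = 0.113), and passed under quantile normalization (0.0448) and with only the groups compared (0.0486).

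From 6 hr to 6 days 4 of 6 members passed, beside 21.4% of all genes. The effect grew for PFKL by log2 0.60 (adjusted p = 0.0321), for PFKP by 0.55 (adjusted p = 0.0143) and for PFKFB3 by 0.68 (adjusted p = 0.00605). It shrank for PFKFB4, with a difference of log2 -0.74 (adjusted p = 0.00425). Over the alternatives that difference ran from -0.94, with a pseudocount of 0.1, to -0.43, under quantile normalization, and passed in each. The PFKL call was lost without library 1, 4, 7, 8, 9, 11 or 12 (adjusted p = 0.0502 to 0.119), with no filter on low values (0.0807) and with only the groups compared (0.0691). The PFKP call was lost without library 9 (0.0595) or 11 (0.0526).

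Time in normoxia alone was compared next. Between 6 hr and 48 hr limma called 0 of 6 members, beside 0.0922% of all genes, and 1 of 6 (PFKL) had an unadjusted p below 0.05. Without library 1 that gene passed (log2 0.50, adjusted p = 0.0398). Between 48 hr and 6 days in normoxia 4 of 6 members passed, close to the 59.4% of all genes that did. PFKFB4 rose by log2 1.09 (adjusted p = 4.31e-06) and PFKFB2 by 0.85 (2.05e-05), while PFKFB3 fell by 0.96 (8.91e-06) and PFKM fell by 0.35 (0.00596). PFKFB2 and PFKFB3 thus exchanged places in the normoxic order. After quantile normalization the PFKM change was -0.07 and did not pass (adjusted p = 0.365). PFKL (log2 -0.30, adjusted p = 0.0579) passed without library 1, 2 or 10 (adjusted p = 0.0308, 0.0307 and 0.0294) and with only the groups compared (0.0484). PFKP (log2 0.20, adjusted p = 0.0832) passed under quantile normalization (log2 0.36, adjusted p = 0.00156) and trimmed-mean centring (log2 0.25, adjusted p = 0.0146). These normoxia libraries also enter the hypoxia effects above, so the time course and those differences are not separate evidence.

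Within hypoxia 2 of 6 members passed between 6 hr and 48 hr, beside 5.84% of all genes. PFKP rose by log2 1.10 (adjusted p = 0.000123) and PFKL by 0.79 (adjusted p = 0.00556). The PFKL call was lost without library 4 (adjusted p = 0.0776) or 7 (0.0701). PFKFB3 and PFKFB4 differed by 0.28 and 0.24 without passing (adjusted p = 0.105 and 0.174). Between 48 hr and 6 days in hypoxia 3 of 6 passed, beside 62.8% of all genes: PFKFB2 rose by log2 0.88 (1.32e-05), PFKFB3 fell by 0.48 (0.000981) and PFKM fell by 0.35 (0.00538). The PFKM call was again lost after quantile normalization (log2 -0.14, adjusted p = 0.0724). PFKFB2, PFKFB3 and PFKM thus moved in the same direction in hypoxia as in normoxia over these days.

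As a description over the 12 libraries, which share their oxygen and time groups, PFKL and PFKP were the most similar pair of members (Pearson r of log2(RPKM + 0.5), 0.971). PFKP and PFKFB4 followed at 0.943, and PFKM and PFKFB2 ran most opposite at -0.775. Among 9654 genes, the 3 nearest in pattern to PFKFB4 were PPFIA4 (r = 0.995), a liprin scaffold gene, ANKZF1 (0.984) and ANGPTL4 (0.978), which encodes an inhibitor of lipoprotein lipase. For PFKP they were DPYSL4 (0.995), CDK2AP2 (0.986) and KDM4B (0.983), a histone demethylase that needs oxygen. For PFKL they were the actin-bundling gene FSCN1 (0.992), the pseudogene TPI1P3 (0.987) and PGK1 (0.982), phosphoglycerate kinase. TPI1P3 can share reads with its parent TPI1, so its value is uncertain.

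The other 3 members had neighbours at similar r. For PFKFB3 they were CHSY1 (0.981), MAPK7 (0.980) and FBXO41 (0.980). For PFKM they were KIAA0391 (0.988), POLR3B (0.987) and MTX1 (0.987), and for PFKFB2 TCEA1 (0.984), DUS4L (0.982) and STX17 (0.982).

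The rest of glycolysis was given by a list of 20 tested genes, transporters and PDK1 included. At 6 hr 12 rose and 0 fell, at 48 hr 17 rose and 0 fell, and at 6 days 17 rose and 1 fell. Over all genes 3.39% rose and 0.201% fell at 6 hr, 9.24 and 2.89% at 48 hr, and 23.9 and 18.3% at 6 days. Their median log2 fold changes were 0.61, 1.13 and 1.57, beside 0.99, 1.31 and 1.61 for the 6 phosphofructokinase genes. This list too was chosen with earlier results of these data known. The highest in the list at 6 hr were ALDOC (2.38), an aldolase that splits the product of PFK-1, the glucose transporter SLC2A1 (2.17), PDK1 (1.60), which restrains pyruvate dehydrogenase, and the hexokinase HK2 (1.59). At 48 hr they were ALDOC (3.62), the enolase ENO2 (2.35), SLC2A1 (2.30) and PDK1 (2.27), and at 6 days ENO2 (2.55), HK2 (2.47), SLC2A1 (2.17) and ALDOC (2.14). The value of PFKFB4 was above each of these at the same time, a gap that was not tested. The member that fell was GPI, which makes fructose 6-phosphate (-0.30 at 6 days, adjusted p = 0.0360), and LDHB and the lactate transporter SLC16A1 passed at no time.

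**Figure D4:**
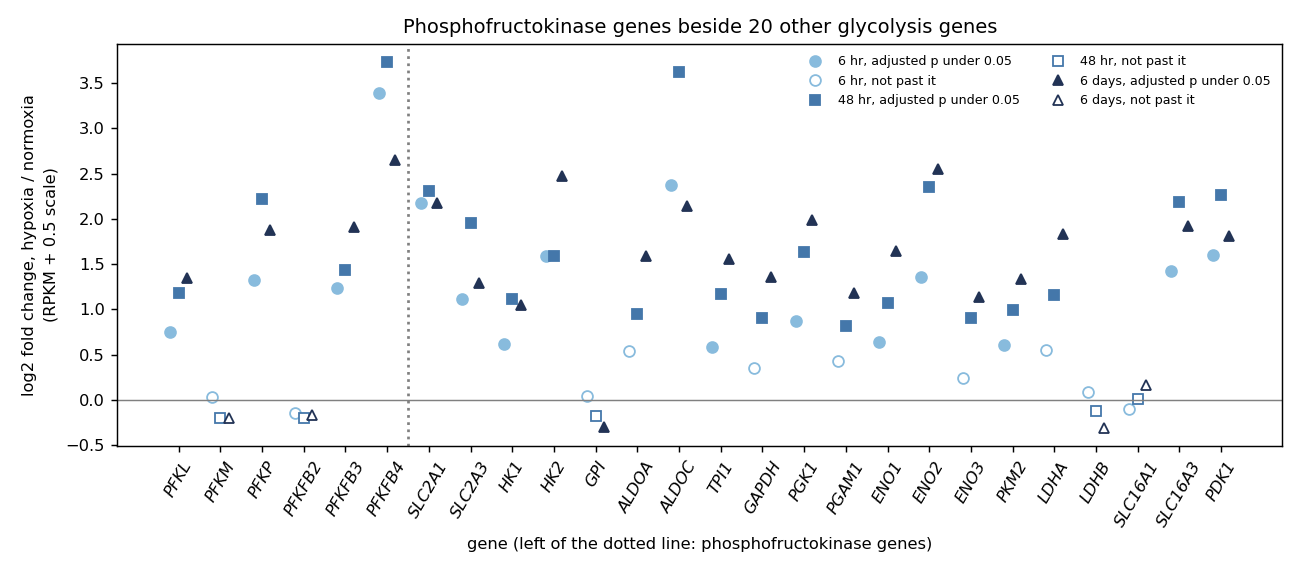
Log2 fold change of hypoxia over normoxia (y axis, RPKM + 0.5 scale) for the 6 phosphofructokinase genes, left of the dotted line, and 20 other glycolysis genes (x axis). Filled symbols passed an adjusted p of 0.05 in limma. PFKM and PFKFB2 are open at every time, as are LDHB and SLC16A1.

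Of 8 tested genes that make or use fructose 6-phosphate or its bisphosphates, 1 rose at 6 hr, 3 at 48 hr and 4 at 6 days, beside 3.39, 9.24 and 23.9% of all genes. The gene at 6 hr was ALDOC (log2 2.38), and those at 48 hr were ALDOC (3.62), ALDOA (0.95) and GFPT2 (0.54). GFPT2 reached 1 RPKM only in hypoxia at 6 days, so the filter let it in through that group and its rises are not separate evidence. Its means at 48 hr were low, 0.229 RPKM in normoxia and 0.558 in hypoxia. The aldolases ALDOC and ALDOA, downstream of PFK-1, stood at log2 2.14 and 1.59 at 6 days. GFPT2, which draws fructose 6-phosphate into hexosamine synthesis, rose by 0.95 then, and C12orf5 (TIGAR), a bisphosphatase, by 0.33 (adjusted p = 0.0203). GPI and the pentose phosphate enzymes TALDO1 and TKT fell at 6 days, with log2 fold changes of -0.30, -0.67 and -0.48, beside 18.3% of all genes that fell.

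Of 9 kinases known to phosphorylate PFKFB proteins limma called 0 at 6 hr and at 48 hr, with 1 and 2 at an unadjusted p below 0.05. Over all genes 3.39% were higher and 0.201% lower at 6 hr, and 9.24 and 2.89% at 48 hr. Beside such shares, 0 of 9 does not set these kinases apart. At 6 days MAPKAPK2 (log2 0.45) and RPS6KA1 (0.30) rose and PRKACB (-0.64), a catalytic subunit of protein kinase A, fell. These are 2 higher and 1 lower of 9, at a time when 23.9% of all genes were higher and 18.3% lower. Of the 3 ubiquitin ligase genes FZR1, BTRC and TRIM21, known to act on PFKFB3 or PFK-1, limma called 0 at each time, with 1, 0 and 0 at an unadjusted p below 0.05. With only 3 genes, this does not set them apart from all genes either.

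Among 6 tested genes of oxygen sensing, EGLN1, a prolyl hydroxylase that marks HIF for destruction, rose at each time (log2 1.34, 1.39 and 1.99). At 6 days EGLN2, another of these hydroxylases, also rose (log2 0.57, adjusted p = 0.0444). Its normoxia libraries then lay far apart, at 3.00 and 5.48 RPKM, against 6.97 and 5.72 in hypoxia. VHL, the part of a ubiquitin ligase that recognises marked HIF, fell then by 0.69 on the log2 scale (adjusted p = 0.00319). HIF1A itself stood at 0.02, -0.17 and -0.37 without passing (adjusted p = 0.968, 0.621 and 0.136). Of 5 hypoxia index genes, ADM, BNIP3, VEGFA, CA9 and NDRG1, 3 rose at 6 hr and all 5 at 48 hr and 6 days. CA9 and NDRG1 reached 1 RPKM in hypoxia only, so the filter let them in through hypoxia and their rises are not separate evidence. NDRG1 reached it only at 6 days, and its means at 48 hr were 0.0849 RPKM in normoxia and 0.490 in hypoxia. Of all genes, 3.39% were higher and 0.201% lower at 6 hr, 9.24 and 2.89% at 48 hr, and 23.9 and 18.3% at 6 days. Of 8 reference genes limma called 0 at 6 hr and at 48 hr, with 1 at an unadjusted p below 0.05 each time. At 6 days it called HPRT1, which was higher by log2 0.69 (adjusted p = 0.00106).

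The libraries held 25.1 to 51.7 M reads, as implied by the steps of low values in the table of precursor microRNAs. Library pairs had Pearson r of 0.989 to 0.995 across genes, which are not independent replicates. The epithelial markers EPCAM and KRT18 read 33.2 to 42.2 and 23.7 to 38.2 RPKM. KRT8 was low, at 0.615 to 1.96 RPKM, and KRT19, CDH1, PAX8, WT1 and MUC16 read at most 0.246. Of 8 fibroblast and smooth muscle markers, 4 of 5 tested (ACTA2, DCN, LUM and TAGLN) were higher in hypoxia at 48 hr and at 6 days, beside 9.24 and 23.9% of all genes. Their summed level was 140 to 147 RPKM in normoxia and 224 to 225 in hypoxia at 48 hr, and 62.5 to 66.1 and 91.0 to 93.9 at 6 days, with COL1A2 near 0. Their part in the changes of the phosphofructokinase genes was not tested. Endothelial markers summed to at most 0.341 RPKM and blood cell markers to at most 1.83 outside library 4.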

How the data were processed

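RNA of A2780 cells was sequenced as 75-base forward reads on a 5500xl from 12 libraries, per the labels' protocols. The values are RPKM per gene symbol as deposited by the authors. The submitters' processing notes name Partek 6.6 and build hg19. The aligner, gene models and RPKM denominator: not given in the sources used here. Because gene values could not be turned back into reads, no count test was run. Depth was inferred from the deposited RPKM of 707 of 939 precursor microRNAs with a known hairpin length. Of these, 135 to 176 values per library were above 0 and of up to 20 reads. Depth was chosen so that most of them were whole within 0.05 reads. The share reached, 96.5 to 99.3%, is thus not a separate check. Of 2387 precursor values also given per gene symbol, 81.4% were equal within a relative 0.001.

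Genes reaching 1 RPKM in 2 or more of the 12 libraries entered the limma model (version 3.58.1, R 4.3.3), fitted to log2(RPKM + 0.5) for 6 group means, with an intensity trend and no further scaling. It had 6 residual and 5.08 prior degrees of freedom. A model with oxygen and time as additive terms had 8 and 4.7. Shares and sums were tested by exact permutation of oxygen labels within each time, the smallest two-sided p being 0.00926. The procedure was tested on simulated data. The simulated libraries had independent noise, so this cannot speak to paired libraries that may be repeats of 1 culture.

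All 6 members were named in every comparison, with PFKFB1. From each list the 4 highest absolute changes past the threshold at each time were named, and for each member the 3 genes of at least 2 mean RPKM with the highest r. Members and lists were chosen with earlier results of these data known. Alternatives were pseudocounts of 0.1 and 1, no filter on low values, quantile normalization, centring on a 10% trimmed mean, no intensity trend, only the libraries of the groups compared, and each library left out in turn. Sequences came from RefSeq, GRCh38.p14. No coordinates were taken for the hg19 values. Figures were drawn with matplotlib 3.10.9.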

Additional observations from a re-analysis of the deposited data

Results flagged for a closer look

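The effect of hypoxia on 4 of the 6 genes differed between times in limma's test of the difference, with Benjamini-Hochberg adjustment over all genes. Over all genes 0.528% passed for 48 hr against 6 hr, 10.7% for 6 days against 48 hr and 21.4% for 6 days against 6 hr. For PFKP it was larger at 48 hr than at 6 hr by log2 0.89 (adjusted p = 0.0136). For PFKFB3 it was larger at 6 days than at 48 hr by 0.48 (adjusted p = 0.0437), and for PFKFB4 it was smaller by -1.08 (adjusted p = 0.00196). At 6 days against 6 hr the differences were 0.60 for PFKL (adjusted p = 0.0321), 0.55 for PFKP (0.0143), 0.68 for PFKFB3 (0.00605) and -0.74 for PFKFB4 (0.00425). The 2 PFKFB4 differences and the PFKFB3 difference from 6 hr to 6 days kept their calls in all 19 alternatives. The PFKP difference from 6 hr to 48 hr lost its call in 5 of 19 alternatives, each of which left out 1 library. The PFKFB3 difference from 48 hr to 6 days lost its call in 11 of 19, and from 6 hr to 6 days PFKL lost it in 9 and PFKP in 2 of 19.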

How the results depend on the processing

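No paired analysis was possible because the groups compared share no library number. The 4 rises at 48 hr and at 6 days (PFKL, PFKP, PFKFB3 and PFKFB4) kept direction and call in all 19 alternatives, as did those of PFKP, PFKFB3 and PFKFB4 at 6 hr. With 1 library left out, 0 to 1 members passed for 48 hr against 6 hr effects, 1 to 2 for 6 days against 48 hr, 2 to 4 for 6 days against 6 hr, 0 to 1 for normoxia at 48 hr against 6 hr and 1 to 2 for hypoxia at 48 hr against 6 hr. For 6 days against 48 hr effects, 1 member passed with a pseudocount of 1, with no filter and with no intensity trend.

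Some small differences changed sign. Under quantile normalization PFKM was at -0.0341 at 6 hr and -0.0298 in normoxia at 48 hr against 6 hr, PFKFB3 at -0.0192 in the latter, and PFKL and PFKP at 0.0545 and 0.0285 in hypoxia at 6 days against 48 hr. Under trimmed-mean centring PFKM was at -0.0282 at 6 hr, and PFKFB3 at -0.00462 in normoxia at 48 hr against 6 hr. With 1 library left out, PFKM ran from -0.0767 to 0.141 at 6 hr and from -0.0275 to 0.0239 for 6 days against 48 hr effects. PFKFB2 ran from -0.128 to 0.0114, -0.0489 to 0.123 and -0.107 to 0.0651 for 48 hr against 6 hr, 6 days against 48 hr and 6 days against 6 hr effects, and from -0.0945 to 0.0449 in normoxia at 48 hr against 6 hr. PFKFB4 ran from -0.0388 to 0.0644 in hypoxia at 6 days against 48 hr. The cause was not tested.

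At 6 hr, 48 hr and 6 days alone, the share differences in percentage points, which have no test, were -17.7, -31.4 and -29.4 for PFKM, 13.6, 26.2 and 21.6 for PFKP, -24.8, -25.5 and -38.7 for PFKFB2, -8.99, -9.00 and 11.7 for PFKFB3, and 34.1, 35.5 and 28.0 for PFKFB4. For PFKL they were 4.10 at 6 hr and 7.79 at 6 days. The PFK-1 sum was higher by log2 0.53, 0.95 and 0.98, and the PFKFB sum by 1.74 at 48 hr and 1.47 at 6 days. Leaving out any library (96 values) or quantile normalization (8 values) changed no direction or call of these shares and sums.

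Counts over all genes moved with single libraries. At 6 hr 428 genes passed, 181 without library 3, 836 without library 1 and 278 with only the groups compared. At 48 hr 1448 passed, and 619 without library 7. For normoxia at 48 hr against 6 hr 11 passed, and 1310 without library 1. For hypoxia at 48 hr against 6 hr 697 passed, 80 without library 7, 1133 without library 2 and 417 with no filter. For effects at 48 hr against 6 hr 63 passed, 11 without library 7, 110 without library 1, 97 under trimmed-mean centring and 36 with only the groups compared. For effects at 6 days against 48 hr 1276 passed, 365 without library 8, 2360 under quantile normalization and 2384 with only the groups compared. For effects at 6 days against 6 hr 2555 passed, and 1498 without library 12. Scaling moved the share of calls that were higher: 94.4, 76.2 and 56.6% at 6 hr, 48 hr and 6 days became 76.3, 59.3 and 45.6% under quantile normalization. For hypoxia at 48 hr against 6 hr that share went from 84.5 to 66.9%, and across times from 68.3 to 45.1%. With 2 libraries per group, small differences such as those of PFKM and PFKFB2 were at the limit of detection.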

Other observations

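Enzymes that share substrates with PFK-1 also changed in normoxia between 48 hr and 6 days, where 59.4% of all genes passed. Of 8 tested, 3 rose and 5 fell. ALDOC, the brain-type aldolase, rose by log2 1.91 and GFPT2 by 0.70, while ALDOA, GPI and C12orf5 fell by 0.99, 0.94 and 0.73. GFPT2 was low in both of these normoxia groups, with means of 0.229 RPKM at 48 hr and 0.679 at 6 days. Of the 20 other glycolysis genes 5 rose and 10 fell over the same interval, with a median of -0.36 beside -0.04 over all genes.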
